A study of Mus musculus with 35 samples.

Results

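The messenger RNA of 7 genes of inherited cystic kidney disease (Pkd1, Pkd2, Pkhd1, Bicc1, Glis2, Glis3 and Cys1) and of Cdh16 was followed in kidneys of newborn mice. These 8 genes were taken by symbol from the 31053 genes of the deposited counts, each symbol matched 1 gene, and Cdh16 was included since its promoter drives the Cre recombinase of the mutant mice. The study asked which of the transcription factors TFEB and TFE3 is needed for the kidney disease that follows loss of Flcn, the gene of folliculin, and the kidneys were taken at postnatal day 2, before cysts are described. The 35 libraries came from whole kidneys of C57BL/6 mice in 3 crosses. The Flcn cross gave 5 Flcn KO libraries (Flcn flox/flox; Ksp-cre+) and 5 control Flcn libraries, and the Flcn/Tfeb cross gave 4 Flcn/Tfeb DKO libraries (both Flcn and Tfeb flox/flox, with Ksp-cre+) and 3 control Flcn/Tfeb libraries. The Flcn/Tfe3 cross gave 10 Flcn/Tfe3 DKO libraries (Flcn flox/flox; Ksp-cre+; Tfe3 -/-) and 8 control Flcn/Tfe3 libraries. Controls were Flcn flox/flox mice in the imaging of the study, and whether the sequenced controls of the Flcn/Tfe3 cross lack Tfe3 is not given in the sources used here. Ksp-Cre acts in collecting ducts, distal tubules and the thick ascending limb, so the floxed alleles were removed in part of the kidney, whereas the Tfe3 null allele acts in the whole animal. In whole kidneys, fewer cells of a type and less RNA per cell cannot be told apart.

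The products of these genes meet at the primary cilium or in the genetic programme of the tubule. PKD1 encodes polycystin-1 and PKD2 the channel polycystin-2, which are mutated in autosomal dominant polycystic kidney disease, and PKHD1 encodes fibrocystin, which is mutated in the recessive form. Cys1 encodes cystin, a ciliary membrane protein lost in the cpk mouse. Bicc1 encodes an RNA-binding protein whose loss gives cystic kidneys, and GLIS2 and GLIS3 are zinc finger transcription factors mutated in nephronophthisis and in neonatal diabetes with renal cysts. Cdh16 encodes Ksp-cadherin, an adhesion molecule of the kidney tubule.

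Promoter sequences (250 bases before to 50 bases after the transcript start, RefSeq, build GRCm38.p6) were at hand for 5 of the 8 genes, Pkd1, Pkd2, Pkhd1, Cys1 and Glis3. They were read on both strands for the E-box CACGTG, the core of the element that TFEB and TFE3 bind. No promoter of the 5 held CACGTG, which is in 7.15% of the 32817 promoters of the table. This says only that these letters are not in these windows, and binding was not measured. The base composition of the 5 promoters differed, from 43.3% G and C in Pkhd1 through 55.3% in Pkd2, 59.0% in Cys1 and 66.7% in Pkd1 to 76.3% in Glis3.

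The libraries were made by QuantSeq, which reads the 3′ end of a transcript, so a transcript gives about 1 read whatever its length. A library held between 1652649 and 4239356 reads on genes (median 2992169), and levels are given as CPM (counts scaled to a common library total) on library sizes scaled over all 35 libraries. Set A here means all libraries of the first 2 crosses, deposited 1 file each, and the Flcn/Tfe3 cross came in 2 tables, set B (6 DKO, 3 controls) and set C (4 DKO, 5 controls). Markers of the kidney were present in every library, with medians of 656 CPM for Slc12a1 (thick ascending limb), 304 CPM for Aqp2 (principal cell) and 535 CPM for Lrp2 (proximal tubule). The reads of Flcn did not separate the groups, with 10.4 to 18.9 CPM in Flcn KO and 11.9 to 16.4 CPM in control Flcn. Those of Tfe3 ranged from 12.5 to 24.6 CPM in Flcn/Tfe3 DKO and from 15.3 to 24.9 CPM in their controls. The controls of the other crosses held more reads of Tfe3, with 27.1 to 39.6 CPM in control Flcn and 29.7 to 43.3 CPM in control Flcn/Tfeb. The cause of this difference was not tested. Tfeb ranged from 6.50 to 7.96 CPM in Flcn/Tfeb DKO and from 7.02 to 19.6 CPM in their controls. Where the floxed and null alleles end relative to the sequenced 3′ ends is not given in the sources used here, so these reads do not check the genotypes.

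A property of the libraries moved with these genes. The share of reads that fell on no gene could be read for the 26 libraries of sets A and C, and it ranged from 7.92% to 19.9%. After the mean of each group and set was taken out, it went with Pkd1 (Pearson r = 0.74), Pkhd1 (r = 0.69) and Pkd2 (r = 0.59) in the same direction and with Bicc1 (r = -0.67), Cys1 (r = -0.62), Glis2 (r = -0.51) and Glis3 (r = -0.49) in the opposite one. The log2 level of Cdh16 followed it little (r = -0.11). The relation was not limited to the 8 genes, as Pam16, a neighbour of Glis2 treated below, had r = 0.74. These are descriptions over 26 libraries that share depth as well, since over all 35 libraries the log2 depth had r = -0.51 with Pkd1 and r = 0.54 with Cys1. Within the Flcn/Tfeb cross, control replicate 3 stood apart with 9.07% of reads on no gene, whereas the other 6 libraries held 17.8% to 19.9%. In set C the 4 DKO libraries held 7.92% to 10.5% and the 5 controls 8.78% to 18.4%. This share was therefore also fitted as a covariate, an alternative chosen after the data were seen.

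**Figure D1:**
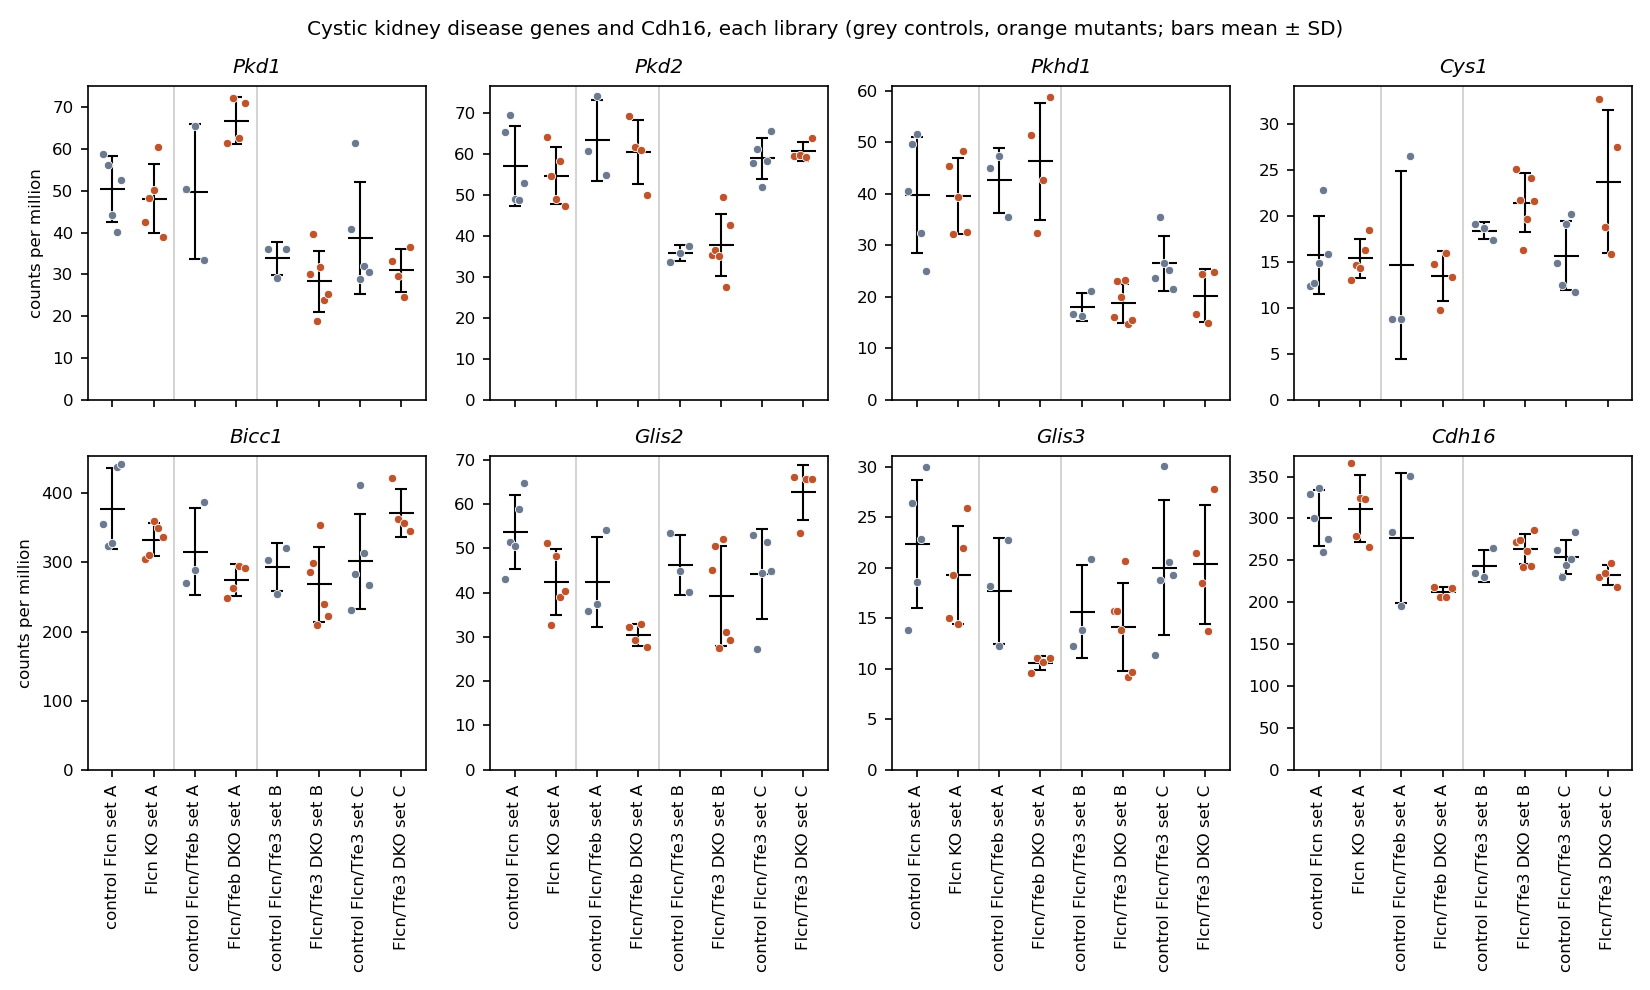
Level of each gene in CPM (vertical axes, each from 0) in the 35 libraries, by group and set; each point is 1 library (grey controls, orange mutants) and the bars are mean ± SD of 3 to 6 libraries. Pkd1 and Pkhd1 lie lower in the Flcn/Tfe3 cross than in set A, while mutants and their own controls overlap in most panels.

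All 8 genes were well above the floor, as the lowest count of any of them in any library was 15 reads (Cys1) and 3 reads correspond to 0.708 to 1.82 CPM. Bicc1 had the highest mean over the 35 libraries (317 ± 59.7 CPM, SD, n = 35), at percentile 97.0 of the 13728 genes that passed the filter over all libraries, and Cdh16 the next (264 ± 42.9 CPM), at percentile 96.3. The mean was 53.3 ± 11.8 CPM for Pkd2, 44.99 ± 11.8 CPM for Glis2, 42.8 ± 14.6 CPM for Pkd1 and 31.2 ± 12.8 CPM for Pkhd1. Glis3 (17.6 ± 5.93 CPM) and Cys1 (17.5 ± 5.43 CPM) were the lowest. The spread between libraries of the same group and set was 12.04% of the mean for Cdh16 and 13.3% for Pkd2, and it was 29.5% for Glis3 and 27.3% for Cys1, whose reads were the fewest.

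The order of the 8 groups and sets differed from gene to gene. Pkhd1 was highest in Flcn/Tfeb DKO (46.3 ± 11.3 CPM, n = 4) and lowest in control Flcn/Tfe3 of set B (18.1 ± 2.66 CPM, n = 3), 2.57-fold apart. Pkd1 had the same top group (66.8 ± 5.59 CPM) and was lowest in Flcn/Tfe3 DKO of set B (28.3 ± 7.24 CPM, n = 6), 2.36-fold apart. Bicc1 and Cdh16 were the flattest, with 1.41-fold and 1.47-fold between the highest and the lowest mean. For 7 of the 8 genes all 7 pairs of neighbours in this order overlapped in range, and for Pkd1 6 of 7 did. The exception was the step from Flcn/Tfeb DKO (61.3 to 72.1 CPM) down to control Flcn (40.2 to 58.7 CPM). Set A holds the Flcn and Flcn/Tfeb crosses, and sets B and C hold the Flcn/Tfe3 cross. A difference in level between the Flcn/Tfe3 cross and the others therefore cannot be told apart from one of set. Levels also differed between sets within that cross, as Pkd2 read 33.8 to 37.7 CPM in its controls of set B and 51.9 to 65.6 CPM in those of set C. Levels were therefore tested only between mutants and controls of the same cross. Comparisons between crosses or sets below are of these effects.

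None of the 8 genes was called in any cross by edgeR's quasi-likelihood F test, at an adjusted p under 0.05 over all genes tested. In the Flcn cross 0 of 8 were called while 62 of 11932 genes were (0.52%), in the Flcn/Tfeb cross 0 of 8 and 0 of 12469 (0%), and in the Flcn/Tfe3 cross 0 of 8 and 48 of 12456 (0.385%). DESeq2 also called 0 of the 8 in each cross, beside 116 of 16025 genes (0.724%), 0 of 19317 (0%) and 93 of 16325 (0.57%). At an unadjusted p under 0.05 there were 1, 2 and 1 of the 8 in the 3 crosses, beside 9.07%, 5.07% and 7.15% of all genes tested. The 95% intervals lay within 2-fold in either direction for all 8 genes in the Flcn and the Flcn/Tfe3 cross, and for 6 of 8 in the Flcn/Tfeb cross, where Glis3 and Cys1 reached beyond it.

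**Figure D2:**
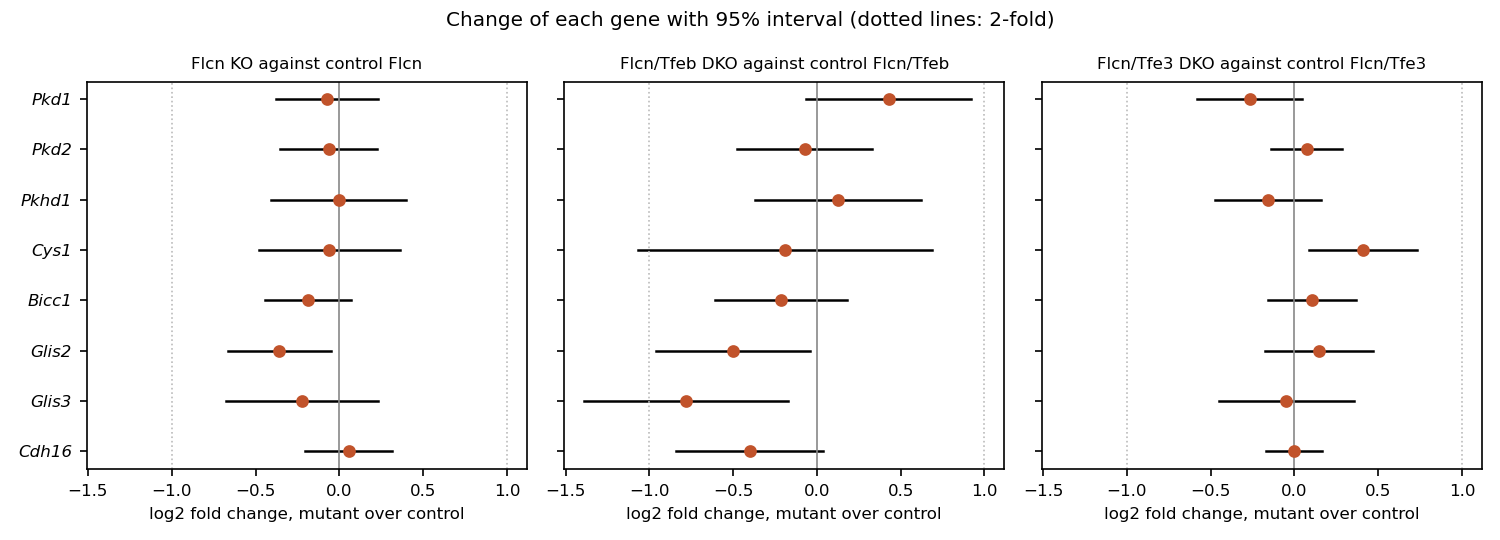
Log2 fold change of each gene (horizontal axes, mutant over control) in the 3 crosses; points are the fitted values, lines the 95% intervals and dotted lines a 2-fold change. In the Flcn/Tfeb cross the intervals are widest, and those of Glis2 and Glis3 lie below 0 there.

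In Flcn KO kidneys 7 of the 8 genes had a log2 fold change below 0, with a median of -0.07 beside -0.01 for all genes tested. Pkd1 was 48.0 ± 8.24 CPM in Flcn KO and 50.3 ± 7.89 CPM in control Flcn (n = 5 each; log2 fold change -0.07 ± 0.15 SE, 95% interval -0.38 to 0.23). Pkd2 was 54.7 ± 6.92 against 57.2 ± 9.73 CPM (-0.06 ± 0.14) and Pkhd1 was 39.6 ± 7.32 against 39.9 ± 11.3 CPM (-0.004 ± 0.19, interval -0.41 to 0.40). The libraries of both groups overlapped for all 8 genes, whereas the groups did not overlap for 2.4% of all genes tested. Cys1 was 15.4 ± 2.11 CPM in Flcn KO and 15.8 ± 4.21 CPM in the controls (-0.06 ± 0.20).

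Glis2 had the smallest p of the 8 in this cross. It read 51.2, 32.8, 48.3, 39.0 and 40.3 CPM in the 5 Flcn KO libraries. In the 5 controls it read 43.0, 51.5, 50.6, 58.8 and 64.7 CPM. All 5 Flcn KO libraries were under the median of the controls and 3 were under every control, and the log2 fold change was -0.36 ± 0.15 (interval -0.67 to -0.05). This was not called (unadjusted p = 0.024, adjusted p = 0.45, edgeR), and with the share of reads on no gene as a covariate it was -0.33 (adjusted p = 0.34). Bicc1 lay in the same direction, with 333 ± 23.8 CPM in Flcn KO and 378 ± 58.6 CPM in control Flcn (-0.19 ± 0.12, adjusted p = 0.67 by edgeR). Glis3 was 19.3 ± 4.83 against 22.3 ± 6.36 CPM (-0.22 ± 0.22).

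Cdh16, the gene whose promoter drives the Cre, read 366, 279, 324, 324 and 266 CPM in Flcn KO and 329, 300.7, 336, 259 and 276 CPM in control Flcn. The groups overlapped throughout, with a log2 fold change of 0.05 ± 0.12 (interval -0.20 to 0.31, adjusted p = 0.93 by edgeR). As a fold, this interval ran from 0.87 to 1.24. The direction turned when Flcn KO replicate 1, the highest library, was left out (-0.01).

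In Flcn/Tfeb DKO kidneys 6 of the 8 genes had a log2 fold change below 0, with a median of -0.20 beside -0.02 for all genes tested. Glis3 and Glis2 had the smallest p. Glis3 read 9.56, 11.04, 10.7 and 11.04 CPM in the 4 DKO libraries and 18.2, 12.3 and 22.8 CPM in the 3 controls. Glis2 read 32.2, 29.2, 32.8 and 27.6 CPM against 35.7, 37.5 and 54.2 CPM. The groups did not overlap for either gene, as for 5.65% of all genes tested. The log2 fold change was -0.78 ± 0.28 for Glis3 (unadjusted p = 0.017) and -0.50 ± 0.21 for Glis2 (p = 0.035), and neither was called (adjusted p = 0.80 each by edgeR). Control Flcn/Tfeb replicate 3 held the highest value of both genes. Without it the log2 fold changes were -0.53 for Glis3 and -0.27 for Glis2, and with the share of reads on no gene as a covariate they were -0.49 and -0.26 (adjusted p = 0.98 each). In this cross the covariate mainly sets control replicate 3 apart (9.07%, against 17.8% to 19.9% in the others). Leaving that library out and adding the covariate are therefore not separate checks, for any gene of this cross.

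The same control library weighed on other genes of the group. Cdh16 read 219, 207, 206 and 217 CPM in Flcn/Tfeb DKO and 283, 196 and 351 CPM in the controls. The 4 DKO libraries lay close together, within the range of the controls, and the log2 fold change was -0.40 ± 0.20 (adjusted p = 0.80). Leaving out control replicate 3 gave -0.18, leaving out control replicate 2 gave -0.59, and the covariate gave -0.14 (adjusted p = 0.98). Cys1 read 14.7, 9.75, 16.03 and 13.4 CPM in DKO libraries and 8.78, 8.78 and 26.5 CPM in controls. Its log2 fold change of -0.19 ± 0.40 turned to 0.63 without control replicate 3 and to 0.65 with the covariate, neither of them called.

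Pkd1 was the gene of this cross with the largest value above 0. It read 61.3, 72.1, 62.6 and 71.0 CPM in Flcn/Tfeb DKO and 50.4, 65.5 and 33.4 CPM in the controls. All 4 DKO libraries were above the median of the controls, control replicate 3 was the lowest library, and the log2 fold change was 0.43 ± 0.22 (interval -0.06 to 0.92, adjusted p = 0.80). Without that control it was 0.19, without control replicate 2 it was 0.68, and with the covariate it was 0.17. Pkd2 was 60.5 ± 7.90 CPM in DKO and 63.4 ± 9.89 CPM in controls (-0.07 ± 0.18), Pkhd1 was 46.3 ± 11.3 against 42.6 ± 6.35 CPM (0.13 ± 0.22), and Bicc1 was 275 ± 23.1 against 316 ± 62.8 CPM (-0.21 ± 0.18). Control replicate 3 was the highest library of Bicc1 in this cross (387 CPM, against 270.5 and 289 CPM in the other controls). Without it the log2 fold changes were -0.03 for Bicc1, -0.17 for Pkd2 and 0.01 for Pkhd1, and with the covariate they were -0.04, -0.17 and -0.0015. This cross had the least power, as of 200 genes simulated with a 2-fold change on 12469 genes 13.5% were recovered, against 76.5% for the Flcn cross (11932 genes) and 82% for the Flcn/Tfe3 cross (12456 genes).

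In Flcn/Tfe3 DKO kidneys 4 of the 8 genes lay above 0 and 4 below, with a median log2 fold change of 0.04 beside 0.01 for all genes tested. Cys1 had the smallest p. In set B it ranged from 16.3 to 25.1 CPM in the 6 DKO libraries (median 21.7) and read 19.2, 18.7 and 17.4 CPM in the 3 controls. In set C it read 32.7, 18.8, 15.8 and 27.5 CPM in the 4 DKO libraries and 14.9, 12.5, 19.1, 20.2 and 11.8 CPM in the 5 controls. Of the 10 DKO libraries 6 were above every control, and the groups overlapped in both sets. The log2 fold change was 0.41 ± 0.16 (interval 0.09 to 0.73), which was not called (unadjusted p = 0.015, adjusted p = 0.47 by edgeR). It was 0.23 in set B alone and 0.56 in set C alone (adjusted p = 0.79 and 0.19), 0.45 in set C with the share of reads on no gene as a covariate (adjusted p = 0.81), and 0.30 to 0.46 when each library was left out in turn.

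Glis2 went opposite ways in the 2 sets of this cross. In set B it ranged from 27.4 to 52.1 CPM in the DKO libraries (median 38.1) and read 53.4, 44.9 and 40.1 CPM in the controls. In set C it read 66.0, 53.4, 65.5 and 65.5 CPM in the DKO libraries and 53.1, 27.2, 44.5, 51.4 and 44.8 CPM in the controls. The groups did not overlap in set C, as for 5.79% of all genes tested, and Glis2 was the only 1 of the 8 of which this was true. In set B none of the 8 was without overlap, beside 2.97% of all genes, and over both sets none, beside 0.12%. The log2 fold change of Glis2 was 0.15 ± 0.16 over both sets (adjusted p = 0.89), -0.23 in set B alone and 0.47 in set C alone (adjusted p = 0.11). With the share of reads on no gene as a covariate, the value in set C was 0.28 (adjusted p = 0.82).

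The difference between the sets was then tested for all genes, a test added after the data were seen. The effect in set C less that in set B was 0.74 ± 0.28 for Glis2 (interval 0.17 to 1.31, unadjusted p = 0.013, adjusted p = 0.12 by edgeR) and 0.44 ± 0.23 for Bicc1 (adjusted p = 0.27). None of the 8 was called, beside 162 of 12456 genes (1.3%), and Glis2 was the only 1 at an unadjusted p under 0.05, beside 22.1% of all genes. The number of genes called here rested on single libraries. It was 0 in 12 of the 18 fits that left out 1 library (control replicates 1, 3, 4, 5 and 8 and DKO replicates 3, 5, 6, 7, 8, 9 and 10), 98 without control replicate 7, 339 and 901 without DKO replicates 2 and 4, and 1690 without control replicate 6. Set B has no tally of reads on no gene, so this test could not be given with that covariate. The number of genes called in set C alone was 569 and became 5 of 12169 with the covariate.

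The other genes of this cross were not called either. Pkd1 was 29.4 ± 6.31 CPM in Flcn/Tfe3 DKO (n = 10) and 36.9 ± 10.7 CPM in the controls (n = 8), with a log2 fold change of -0.27 ± 0.15 (interval -0.58 to 0.05, adjusted p = 0.76 by edgeR). Of its 10 DKO libraries 4 were below every control, and the value was -0.25 in set B alone and -0.31 in set C alone. In set C with the covariate it was 0.25, so the direction of Pkd1 there depended on that term. Pkd2 was 47.0 ± 13.2 against 50.3 ± 12.6 CPM (0.07 ± 0.10 with the set as a term) and Pkhd1 was 19.3 ± 4.18 against 23.3 ± 6.13 CPM (-0.16 ± 0.15). Bicc1 was 309.7 ± 70.1 against 298 ± 55.1 CPM (0.11 ± 0.13) and Glis3 was 16.6 ± 5.68 against 18.4 ± 6.03 CPM (-0.05 ± 0.20).

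Cdh16 was the most tightly bounded of the 8 in this cross. It ranged from 218 to 286 CPM in the 10 DKO libraries (median 245) and from 229.8 to 284 CPM in the 8 controls (median 248). The ranges overlapped, with 1 DKO library above and 1 below every control, and the log2 fold change was -0.003 ± 0.08 (interval -0.17 to 0.17, or 0.89-fold to 1.12-fold). It was 0.12 in set B alone and -0.15 in set C alone, and neither was called (adjusted p = 0.81 and 0.52). The set difference was -0.23 ± 0.15 (adjusted p = 0.39).

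The changes of 2 crosses were compared as interactions, each against its own controls. No gene of the 8 was called when the Flcn/Tfeb DKO effect was set against the Flcn KO effect (0.0153% of all genes called), when Flcn/Tfe3 DKO was set against Flcn KO (0% called) or when Flcn/Tfe3 DKO was set against Flcn/Tfeb DKO (0.022% called). At an unadjusted p under 0.05 the counts were 0, 1 and 3 of 8, beside 5.95%, 7.4% and 12.2% of all genes tested. Between the double knockouts, the Flcn/Tfe3 effect less the Flcn/Tfeb effect was -0.71 ± 0.29 for Pkd1, 0.64 ± 0.30 for Glis2 and 0.38 ± 0.17 for Cdh16 (adjusted p = 0.34, 0.39 and 0.39 by edgeR). Without control Flcn/Tfeb replicate 3 these were -0.46, 0.41 and 0.18. Other controls moved them the other way, with -0.96 for Pkd1 and 0.57 for Cdh16 without replicate 2 and 0.74 for Glis2 without replicate 1. The Flcn/Tfe3 effect less the Flcn effect was 0.51 ± 0.24 for Glis2 (unadjusted p = 0.045, adjusted p = 0.66) and 0.47 ± 0.26 for Cys1 (adjusted p = 0.66). For Cdh16 the Flcn/Tfeb effect less the Flcn effect was -0.46 ± 0.22 (unadjusted p = 0.05, adjusted p = 0.82), and -0.23 without that control.

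The 3′ ends of 2 of the genes lie on those of neighbours on the opposite strand. In the mm10 annotation (GENCODE M21) Pkd1 (chr17:24549834-24596508, plus strand) overlaps the end of Tsc2, a gene of tuberous sclerosis, by 692 bases. Glis2 (chr16:4594713-4624924, plus strand) overlaps exons of Pam16, which encodes a subunit of the mitochondrial import motor. The end of Pam16 lies 8460 bases before that of Glis2, so these 2 ends do not meet. Whether the counting used the strand of the reads is not given in the sources used here, so reads of such pairs may not be told apart. Tsc2 held 19 to 123 reads per library and followed Pkd1 little (r = -0.04 over 35 libraries, centred by group and set). Pam16 held 50 to 182 reads and moved against Glis2 (r = -0.61).

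In the Flcn cross its log2 fold change was 0.37 ± 0.15 (adjusted p = 0.46) where that of Glis2 was -0.36. In set C Pam16 read 18.6, 21.99, 21.6 and 16.1 CPM in Flcn/Tfe3 DKO and 32.9, 36.2, 24.0, 31.6 and 37.7 CPM in the controls. It was thus lower in each DKO library than in any control, beside 5.79% of all genes without overlap in set C. The effect on Pam16 in set C less that in set B was -1.03 ± 0.25, which was called (adjusted p = 0.043 by edgeR). The value was -1.14 to -0.96 when each of the 18 libraries was left out in turn, but the call held in only 4 of these fits, those without control replicate 6 or without DKO replicate 1, 2 or 4 (adjusted p = 0.0033 to 0.12 over the 18). Over 26 libraries Pam16 went with the share of reads on no gene (r = 0.74), whereas Glis2 went against it. Other annotated genes that overlap exons of a member, the antisense transcripts 4930486I03Rik in Pkhd1 and 4930533K18Rik in Bicc1, had 0 reads.

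**Figure D3:**
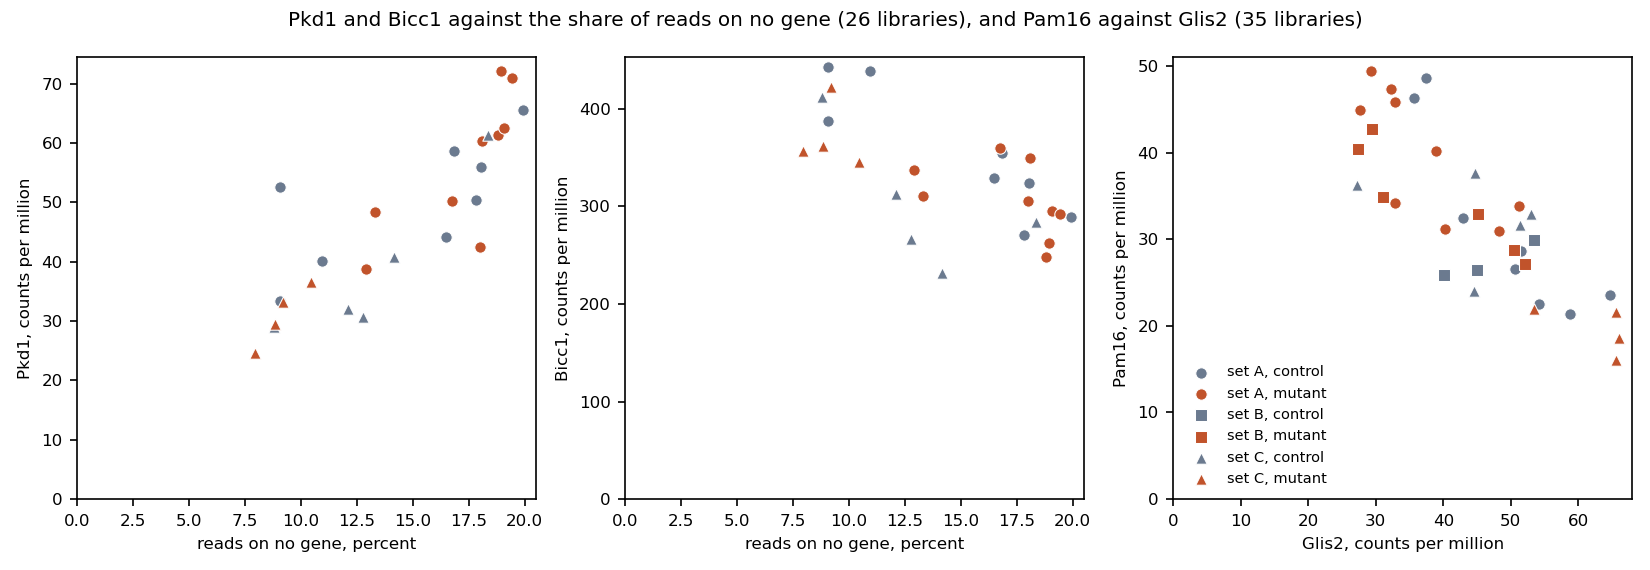
Pkd1 and Bicc1 in CPM against the percentage of reads on no gene in 26 libraries (left and middle), and Pam16 against Glis2 in CPM in 35 libraries (right); circles are set A, squares set B, triangles set C, grey controls and orange mutants. Pkd1 is higher and Bicc1 lower where more reads fall on no gene, and Pam16 is low where Glis2 is high.

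The 8 genes fell into groups by how they varied among the libraries. Over the 28 pairs the Pearson correlation of log2 CPM, centred by group and set, ranged from -0.42 to 0.62 with a median of 0.05. Bicc1 went with Glis3 (r = 0.62), Cys1 (0.53) and Glis2 (0.50). Pkd1 went with Pkhd1 (0.43) and Pkd2 (0.39). Cys1 had the most negative pairs, with Pkd2 (-0.42) and Pkd1 (-0.31), and Cdh16 was near 0 with most others, from -0.24 with Pkd1 to 0.28 with Glis2. These are the same sides as in the relation to the share of reads on no gene, and they describe 35 libraries without a test.

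**Figure D4:**
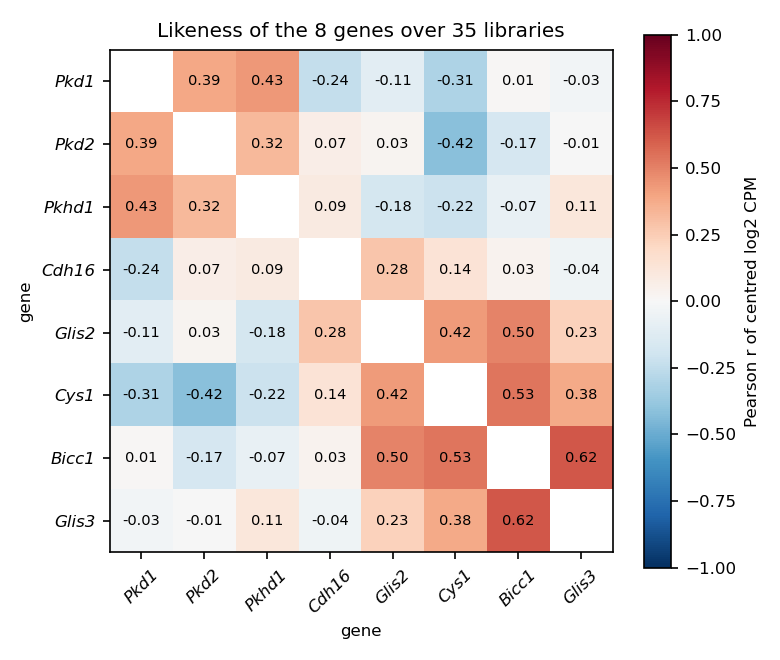
Pearson r of log2 CPM for each pair of the 8 genes over 35 libraries, after the mean of each group and set was taken out (colour scale from -1 to 1). Pkd1, Pkd2 and Pkhd1 are positive with each other, as are Bicc1, Glis2, Glis3 and Cys1.

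Among the 13728 genes that passed the filter over all libraries, the gene most like Cdh16 was Umod (r = 0.83), which encodes uromodulin of the thick ascending limb, followed by Sdha and Letm1 (both r = 0.73), which encode a subunit of succinate dehydrogenase and a mitochondrial ion exchanger. Bicc1 was closest to Smarca4 (0.93), Nfix (0.92) and Myh10 (0.91), which encode a chromatin remodeller, a transcription factor and a non-muscle myosin. Pkd1 was most like Usp36, Braf and Mapk8ip3 (0.80, 0.78 and 0.76) and Pkd2 most like Mapk8ip3, 4933427D14Rik and Uevld (0.68, 0.66 and 0.65). For Pkhd1 the closest were Map2k5, 4930518I15Rik and Dst (0.74, 0.71 and 0.70), and for Cys1 they were Gna11, Hspa9 and Akt1 (0.83, 0.80 and 0.80). Glis2 was closest to Samd4b, Cd47 and Sel1l (0.77, 0.77 and 0.75), and Glis3 to Aff1, Ank3 and Usp47 (0.81, 0.80 and 0.74). The likeness was taken over 35 libraries and is a description.

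No gene of the ciliary lists read here was called. Lists of intraflagellar transport and ciliary motors, of nephronophthisis and transition zone proteins and of the BBSome and ciliary trafficking hold 66 genes, of which 61 were tested in the Flcn cross and 62 in each double knockout cross. None was called in any of the 3 crosses, beside 0.52%, 0% and 0.385% of all genes tested. At an unadjusted p under 0.05 there were 3, 1 and 2, beside 9.07%, 5.07% and 7.15% of all genes. Their log2 fold changes ran from -0.78 to 0.48, from -1.02 to 1.10 and from -0.44 to 0.38, with medians of 0.00, 0.03 and -0.01, beside -0.01, -0.02 and 0.01 for all genes. In Flcn KO the smallest p among them belonged to Tmem216 (-0.78 ± 0.29) and B9d1 (0.46 ± 0.17), 2 genes of the transition zone, which were not called (adjusted p = 0.39 and 0.41 by edgeR). Tmem67, which encodes the transition zone protein meckelin, had the largest value in Flcn/Tfeb DKO (1.10 ± 0.42, adjusted p = 0.80). In Flcn/Tfe3 DKO the anterograde transport gene Ift88 was at -0.33 ± 0.13 and Ift20 at -0.41 ± 0.19 (adjusted p = 0.55 and 0.67).

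Of 16 other inherited cyst genes, Umod was the only 1 called. It rose in Flcn KO (log2 fold change 1.001 ± 0.12, adjusted p = 0.00040 by edgeR) and in Flcn/Tfe3 DKO (0.71 ± 0.10, adjusted p = 0.00022), and none of the 16 was called in Flcn/Tfeb DKO. Of all genes tested, 0.52%, 0.385% and 0% were called in these 3 crosses. For Umod the Flcn/Tfeb effect less the Flcn effect was -1.25 ± 0.27, which was not called (adjusted p = 0.26 by edgeR). UMOD is mutated in a dominant tubulointerstitial kidney disease with occasional cysts, and its messenger marks the thick ascending limb. In Flcn KO Notch2 had the next smallest p (-0.68 ± 0.18, adjusted p = 0.15), in Flcn/Tfeb DKO Dnajb11 was at -0.57 ± 0.23 (adjusted p = 0.80), and in Flcn/Tfe3 DKO the next after Umod was Sec61b (-0.45 ± 0.22, adjusted p = 0.70). The median of the 16 was -0.004, -0.04 and 0.01 in the 3 crosses.

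The segments in which the Cre acts were compared with Cdh16 through their markers. Of 6 intercalated cell genes tested in Flcn KO 3 were called, all higher, among them Aqp6 (2.06 ± 0.22), an intracellular water channel, and the proton pump subunit genes Atp6v0d2 (1.02 ± 0.13) and Atp6v1g3 (1.31 ± 0.18). In Flcn/Tfe3 DKO 2 of 7 were called, Aqp6 (1.81 ± 0.18) and Atp6v0d2 (1.13 ± 0.15), and in Flcn/Tfeb DKO none of 7. The share of all genes tested that was called was 0.52% in Flcn KO, 0.385% in Flcn/Tfe3 DKO and 0% in Flcn/Tfeb DKO. Of 7 principal cell genes 1 was called in Flcn KO, the sodium channel subunit gene Scnn1b (0.58 ± 0.13, adjusted p = 0.049), and none in the double knockouts. The list was mixed in direction. At an unadjusted p under 0.05 it had 2 higher and 1 lower of 7 in Flcn KO (median 0.16), 0 higher and 2 lower in Flcn/Tfeb DKO (median 0.09) and 3 higher and 2 lower in Flcn/Tfe3 DKO (median 0.19). Of all genes tested, 9.07%, 5.07% and 7.15% had such a p in these crosses, in either direction, with medians of -0.01, -0.02 and 0.01. The water channel gene Aqp2 was at -0.48 ± 0.14 in Flcn KO and -0.40 ± 0.11 in Flcn/Tfe3 DKO (adjusted p = 0.20 and 0.21 by edgeR). Hsd11b2, which encodes the enzyme that inactivates glucocorticoids, was at 0.34 ± 0.11 in Flcn/Tfe3 DKO and -0.84 ± 0.33 in Flcn/Tfeb DKO, where the water channel gene Aqp3 was at -1.01 ± 0.39 (adjusted p = 0.33, 0.80 and 0.80). Of 5 thick ascending limb genes Umod was called in Flcn KO and Flcn/Tfe3 DKO and none in Flcn/Tfeb DKO, and of the distal convoluted tubule genes none was called in any cross. Cdh16, with log2 fold changes of 0.05, -0.40 and -0.003, was not called beside them. The summed level of the 7 intercalated cell genes was 398 to 551 CPM in Flcn KO and 145 to 221 CPM in control Flcn (270.6 to 288 CPM in Flcn/Tfeb DKO and 189 to 236 CPM in its controls), and its part in the values of the 8 genes was not tested.

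**Figure D5:**
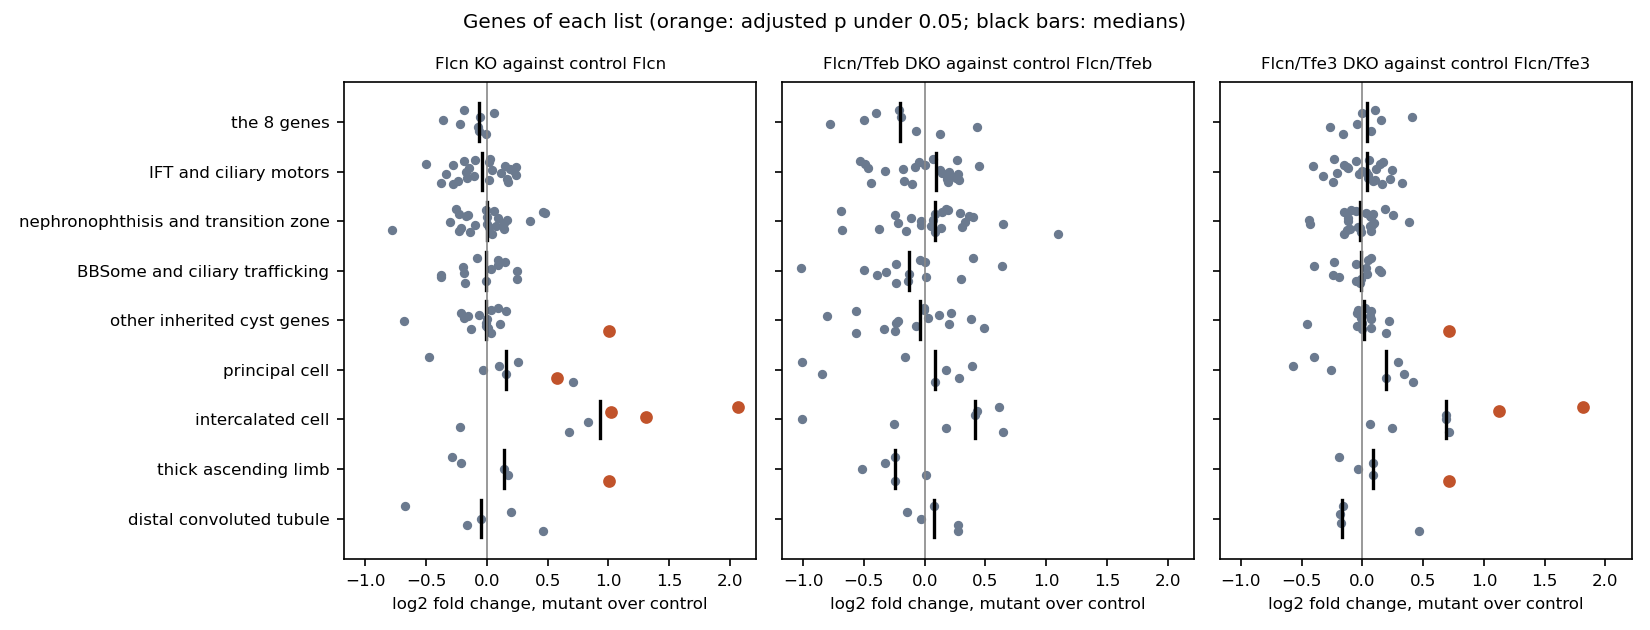
Log2 fold change (horizontal axes, mutant over control) of each gene tested in the 8 genes, the lists of ciliary and cyst genes and the markers of 4 tubule segments; orange points had an adjusted p under 0.05 by edgeR and black bars are medians. No gene of the ciliary lists is orange, while Umod, Scnn1b and intercalated cell genes are in Flcn KO.

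Markers of cells outside these segments were read in the same libraries. Of the proximal tubule, podocyte, endothelium, stroma, nephron progenitor, ureteric tip, myeloid and red blood cell lists no gene was called in any of the 3 crosses. Of all genes tested, 0.52% were called in Flcn KO, 0% in Flcn/Tfeb DKO and 0.385% in Flcn/Tfe3 DKO. In Flcn KO 3 of 4 nephron progenitor genes and 3 of 5 ureteric tip genes were lower at an unadjusted p under 0.05, with medians of -0.61 and -0.56, beside 9.07% of all genes in either direction. In Flcn/Tfeb DKO 2 of 5 ureteric tip genes were, Gfra1 (-0.84 ± 0.35) and Ret (-1.24 ± 0.55, adjusted p = 0.80 each by edgeR), with a median of -0.41 over the 5, and none of 4 nephron progenitor genes, beside 5.07% of all genes. In Flcn/Tfe3 DKO over both sets 3 of 4 red blood cell genes were, with a median of -0.63, beside 7.15% of all genes. The summed level of these 4 genes was 1014 to 1366 CPM in the DKO libraries of set C and 1525 to 5563 CPM in its controls, without overlap. Of single genes tested, 5.79% had groups without overlap in set C. In set B the summed level was 2422 to 4680 CPM against 2596 to 4447 CPM. The effect in set C less that in set B was -1.75 ± 0.40 for the beta-globin gene Hbb-bs, which was called (adjusted p = 0.043 by edgeR), and -0.81 ± 0.37 for the alpha-globin gene Hba-a1, which was not (adjusted p = 0.20). The call of Hbb-bs falls away in the 12 of 18 fits named above in which no gene was called. For the same difference between sets, 3 of 5 ureteric tip genes and 2 of 5 nephron progenitor genes were above 0 at an unadjusted p under 0.05 (medians 0.49 and 0.76, beside 0.04 for all genes), and none was called, beside 22.1% and 1.3% of all genes. Among them the receptor genes Gfra1 and Ret of the ureteric tip were at 0.83 ± 0.26 and 1.33 ± 0.55 and the progenitor factor gene Six2 at 1.30 ± 0.45 (adjusted p = 0.084, 0.16 and 0.11 by edgeR). Glis2 was at 0.74 in this comparison and was not called, and the part of these cell types and of red blood cells in that value was not tested. In Flcn KO the summed levels were 19.9 to 31.3 CPM against 31.9 to 49.4 CPM in the controls for nephron progenitors, and 50.7 to 70.9 CPM against 66.0 to 113 CPM for the ureteric tip. For podocytes they were 310 to 365 CPM in Flcn KO and 378 to 403 CPM in the controls, without overlap. Of single genes tested, 2.4% had groups without overlap in this cross. The median log2 fold change of the podocyte list was -0.08, beside -0.01 for all genes. Of its 5 genes, 1 was lower at an unadjusted p under 0.05. Podxl of the podocyte (-0.40 ± 0.13), Slc22a6 of the proximal tubule (-0.46 ± 0.16) and Pdgfrb of the stroma (-0.51 ± 0.17) were also lower in Flcn KO at an unadjusted p under 0.05. Their adjusted p was 0.32, 0.34 and 0.31 by edgeR. Over 35 libraries, centred by group and set, 7 pairs of a gene and the mean of a marker list had an r above 0.5. They were Cdh16 with proximal tubule (0.68) and thick ascending limb (0.61), Bicc1 with endothelium (0.65) and ureteric tip (0.55), Cys1 with nephron progenitor (0.62) and ureteric tip (0.60), and Glis2 with ureteric tip (0.58). The part of these cell types in the values of these genes was not tested.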

How the data were processed

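RNA of mouse kidneys at postnatal day 2 was measured in 35 QuantSeq libraries. Per the methods of the study, reads were trimmed (bbduk), aligned to mm10 (STAR) and assigned to genes (HTSeq-count), and the authors deposited whole-number counts without normalization, whereas their later normalization was not used here. The submitters' processing notes also name Trim Galore. A further deposited column, in percent, gives multiply mapped reads, and this 1 column was left aside. Rows of the deposited counts that name no gene were left out of library sizes and tests, and in the 26 libraries that list them the reads on no gene were 7.92% to 19.9% and the reads aligned to more than 1 place 33.7% to 49.4% of the total. The strand setting and the annotation release are not given in the sources used here, and 99.6% of the 31053 genes are in GENCODE M21. Libraries of 1 group and set, 63 pairs, were compared by chi-square per degree of freedom (2.85 to 42.6), and none was treated as a repeat. Replicates are separately labelled libraries. Where nothing says that they come from separate mice, p values measure only the spread between these libraries, and CPM precision is set by counting error as well.

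Tests used the quasi-likelihood F test of edgeR 4.0.16 (R 4.3.3), after filterByExpr by group and TMM scaling, with the set as a term in the Flcn/Tfe3 cross and interactions for differences between crosses. P values were adjusted over all genes tested (Benjamini-Hochberg), and genes with a value under 0.05 are named as called. Correlations used log2 CPM with a prior count of 2. Fits were tested on simulated data with 200 genes changed. Alternatives were DESeq2 1.42.0, RLE factors, no filter, the replicate block, each set alone, each library left out and, added later, the share of reads on no gene as a covariate and a genotype effect for each set. The genes named are the 8 members, the 3 genes most like each by Pearson r, from each list the called genes and the 2 with the smallest p, and genes that overlap a member. Pam16 values by library and the targeted genes were added after the data were seen. Of the list genes chosen by this rule, the called ones and those at an unadjusted p under 0.05 in the cilium and cyst lists are printed, except that 1 gene is not reported here. The members and lists were chosen with earlier results of these data known. Symbols came from a deposited table and coordinates from GENCODE M21. Figures were drawn in matplotlib.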

Additional observations from a re-analysis of the deposited data

Results flagged for a closer look

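Of 48 groups of 4 to 6 libraries tested (6 for each gene), 2 held a library far from the others by Dixon's criterion, which chance exceeds in about 1 of 20 groups. Pkd2 was 64.06 CPM in Flcn/Tfe3 DKO replicate 10 of set C, whereas the other 3 libraries lay between 59.42 and 59.81 CPM. Glis2 was 53.37 CPM in Flcn/Tfe3 DKO replicate 8 of set C, whereas the other 3 lay between 65.51 and 66.01 CPM.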

How the results depend on the processing

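None of the 8 genes was called under any alternative run. Under settings other than leaving out a library, 181 of 200 values of single genes kept their direction and 19 turned (lowest adjusted p = 0.10), and with 1 library left out 933 of 984 kept it and 51 turned (lowest adjusted p = 0.056). Causes were not tested. The number of genes called in Flcn KO was 95 with no filter, 116 by DESeq2 and 155 with the share of reads on no gene as a covariate. In Flcn/Tfe3 DKO it was 93 by DESeq2, 8 in set B alone, 569 in set C alone and 5 in set C with the covariate, and for set C less set B it was 398 with no filter. Directions turned with no filter for Cdh16 in Flcn/Tfe3 DKO (0.014), for Pkd2 in the Flcn/Tfeb effect less the Flcn effect (0.0048, and 0.0056 with RLE factors) and for Pkd1 (0.016) and Pkd2 (0.0076) in set C less set B. In set B alone they turned for Pkhd1 (0.064), Bicc1 (-0.12), Glis2 (-0.23) and Cdh16 (0.12). With the covariate they turned in Flcn KO for Cys1 (0.045) and Cdh16 (-0.017), in Flcn/Tfeb DKO for Pkhd1 (-0.0015) and Cys1 (0.65) and in set C for Pkd1 (0.25).

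Replicate numbers are shared between groups, and same-numbered libraries did not deviate together in a regular way (r from -0.34 to 0.33). Replicate 2 of the Flcn/Tfeb cross (r = 0.15) and replicate 1 of set B (r = 0.33) were each other's closest libraries. These few values cannot show whether the numbers mark a pairing. With the replicate block 2 genes were called in Flcn/Tfe3 DKO, and directions turned for Pkhd1 in Flcn KO (0.015), Pkd2 (0.018) and Pkhd1 (-0.021) in Flcn/Tfeb DKO, and Pkd2 (-0.015) and Pkhd1 (0.00039) in Flcn/Tfe3 DKO.

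With each library left out in turn, the genes called ranged from 37 to 58 in Flcn KO, 0 to 1 in Flcn/Tfeb DKO, 30 to 53 in Flcn/Tfe3 DKO, 0 to 3 for Flcn/Tfeb less Flcn, 1 to 82 for Flcn/Tfe3 less Flcn/Tfeb and 0 to 1690 for set C less set B. In Flcn KO the values spanned 0 for Pkd2 (-0.13 to 0.017), Pkhd1 (-0.14 to 0.10), Cys1 (-0.14 to 0.13) and Cdh16 (-0.010 to 0.11). In Flcn/Tfeb DKO they did for Pkd2 (-0.17 to 0.057), Pkhd1 (-0.0034 to 0.26) and Cys1 (-0.44 to 0.63), and in Flcn/Tfe3 DKO for Glis3 (-0.15 to 0.063) and Cdh16 (-0.041 to 0.023). For Flcn/Tfeb less Flcn they did for Pkd2 (-0.095 to 0.12), Bicc1 (-0.12 to 0.16), Glis2 (-0.25 to 0.10) and Cys1 (-0.40 to 0.70), for Flcn/Tfe3 less Flcn for Cdh16 (-0.11 to 0.010), and for Flcn/Tfe3 less Flcn/Tfeb for Pkd2 (-0.0027 to 0.24) and Cys1 (-0.22 to 0.84). For set C less set B they did for Pkd1 (-0.12 to 0.19), Pkd2 (-0.11 to 0.061) and Glis3 (-0.098 to 0.36).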
